A study of Homo sapiens with 6 samples.

Results

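Ion channel genes were read out in RKO cells, a long-established line from a human colon carcinoma, by RNA sequencing of libraries carrying a short hairpin RNA. The members were the protein-coding rows of the deposited table whose gene name begins with the prefix of a channel family: KCN, SCN, CACN, TRP, CLCN, CLIC, ANO, HCN, P2RX and the families gated by glutamate (GRI), GABA (GABR), glycine (GLR) and acetylcholine (CHRN). They numbered 37 of the 2885 rows and of the 2036 protein-coding rows of the table. GENCODE 29 holds 261 protein-coding genes under the same prefixes, so most of the family was outside the table and was not analysed here, including all 8 P2RX genes. The share of all annotated protein-coding genes that the table holds was not computed. Nothing is therefore read from how many genes of a family or list it holds. One match, GLRX, encodes a glutaredoxin, an enzyme that reduces glutathionylated proteins, and no channel. It was kept as a member and is described apart.

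The study set 3 libraries labelled shKMT5A, with the genotype label KMT5A knockdown, against 3 labelled ShNC, the control hairpin, with a wild-type genotype label. All 6 were bulk total RNA of the same line. The labels name neither the hairpin sequences, nor separate cultures or clones, nor the time after transduction, so the p-values speak for the spread among these 6 libraries alone, and that spread may be technical. KMT5A, the targeted methyltransferase of histone H4 lysine 20, was higher in the libraries labelled as its knockdown: 4015, 3898 and 3297 normalized counts there, against 1298, 1245 and 1307 in the shNC libraries, a log2 fold change of 1.54 ± 0.07 (SE; limma, adjusted p = 1.00e-08). With 3 libraries a group, an exact permutation test (two-sided) cannot go below p = 0.1, the value it gave. KMT5A stayed higher under other scalings, with a log2 fold change of 0.96 with equal totals, 0.94 with TMM, 0.99 with edgeR and 0.59 with DESeq2. The target therefore goes against the label, and every direction given here is that of the libraries labelled shKMT5A.

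The authors' deposited table lists only genes whose log2 fold change is 1.0002 or more in size, with an adjusted p of at most 0.0499, so its rows had been selected as different between these same libraries. An adjusted p over rows selected so does not bound the share of false calls among them. Reads assigned to its genes ranged from 1891460 to 1980866 in the libraries labelled shKMT5A and from 1363382 to 1369655 in the shNC libraries, and the full depth is unknown. A normalized count was worth close to 1 read in every library (0.9522 to 1.0470 normalized counts per read). Replicates varied by more than counting alone gives. The variance was 2.16 to 2.73 times as large in pairs of shNC libraries. It was 4.95 times as large in the only shKMT5A pair compared, replicates 1 and 2.

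Ion channels are membrane proteins that let ions pass down their electrochemical gradient when voltage, a ligand, a second messenger or mechanical force opens the pore. Pore-forming subunits carry the current, and auxiliary subunits set trafficking and gating. In colon epithelium, potassium and chloride channels serve salt and water secretion and TRP channels serve the uptake of calcium and magnesium, while voltage-gated sodium channels and transmitter receptors are best known from nerve and muscle.

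The channel genes in the table split almost evenly by direction. Of the 37 members, 18 were higher and 19 lower in the libraries labelled shKMT5A (limma on log2(normalized count + 1), adjusted p at most 0.00847), where 57.4% of all rows tested were higher and 42.6% lower. All 37 passed the filter on low values, and the groups did not overlap for any of the 37, where 99.7% of all rows did not overlap. The rows had been selected for such a difference, so nothing is read from either count. The median log2 fold change was -1.01 over the members and 1.13 over all rows, and the median absolute change was 1.92 and 1.75. With so even a split the members' median is the value of a single gene at the edge between the directions. Other scalings alone moved this balance little: 18 members were higher and 19 lower with equal medians over the table, 17 and 19 with equal totals, and 16 and 19 with TMM. They moved the median log2 fold change of all rows by -0.24, -0.57 and -0.59. On the reads of 5 libraries, where the scaling, the test and the libraries all differ, edgeR gave 15 higher and 19 lower members and DESeq2 gave 9 and 19, and the median of all rows moved by -0.62 and -1.02. Of all rows, 53.4% were higher with TMM, 52.0% with edgeR and 27.2% with DESeq2, and 42.6% were lower with each. With equal medians 1652 of the 2885 rows were higher and with equal totals 1564, and 1229 were lower with either.

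The median member averaged 54.9 normalized counts over the 6 libraries, against 63.9 for all rows and 146 for protein-coding rows, and 13 of the 37 averaged over 100. Means under 10 are called low here, and 5 members (13.5%, against 17.5% of all rows) were low: ANO2, ANO4, CACNA1B, GABRR1 and TRPC7. In a bulk library, fewer cells that transcribe a gene and less RNA of it per cell cannot be told apart.

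**Figure D1:**
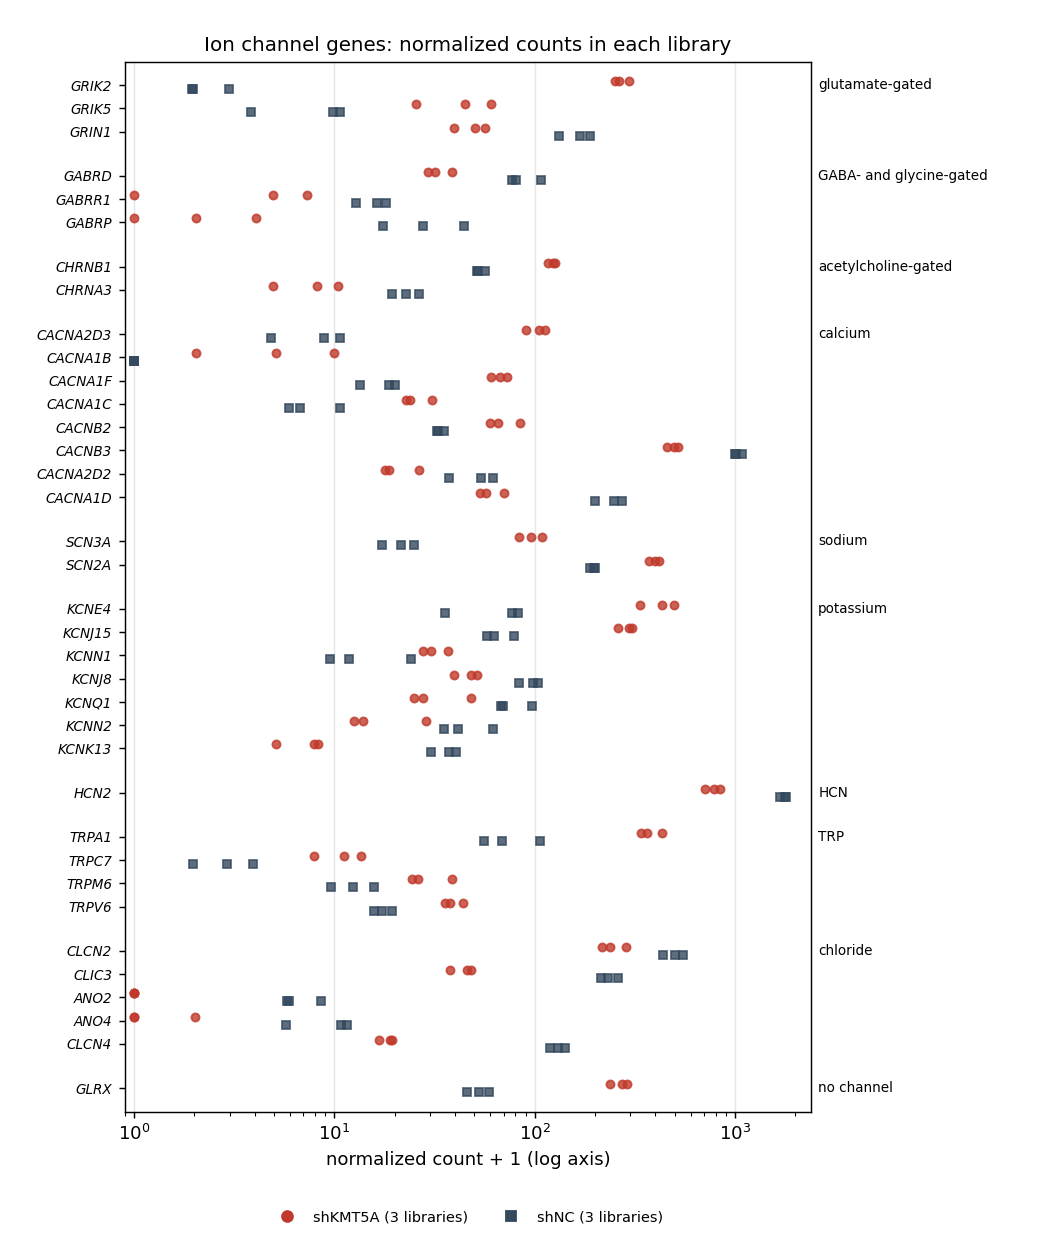
Normalized count plus 1 on a log axis for 36 of the 37 members, grouped by ion or ligand. Circles are the 3 libraries labelled shKMT5A and squares the 3 shNC libraries, and in no member shown do the groups overlap. GRIK2 shows the widest separation, and HCN2 is the member with the most counts in both groups.

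On the log2(normalized count + 1) scale the largest rises among members were those of GRIK2 and CACNA2D3, and CLCN4 fell furthest among the members with reads in all 6 libraries. Promoter stretches are shown for these 3 genes for that reason. Each run is the 250 bases before a RefSeq start (GRCh38.p14, plus strand, 5′ to 3′), with CpG dinucleotides in capitals. They lie at chr6:101393458-101393707, chr3:54122302-54122551 and chrX:10156725-10156974.
GRIK2: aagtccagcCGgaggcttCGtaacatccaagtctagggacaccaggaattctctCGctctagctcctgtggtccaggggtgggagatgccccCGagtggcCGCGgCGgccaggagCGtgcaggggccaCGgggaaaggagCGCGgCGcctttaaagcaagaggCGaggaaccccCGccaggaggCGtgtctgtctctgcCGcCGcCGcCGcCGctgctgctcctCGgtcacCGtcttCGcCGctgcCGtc
CACNA2D3: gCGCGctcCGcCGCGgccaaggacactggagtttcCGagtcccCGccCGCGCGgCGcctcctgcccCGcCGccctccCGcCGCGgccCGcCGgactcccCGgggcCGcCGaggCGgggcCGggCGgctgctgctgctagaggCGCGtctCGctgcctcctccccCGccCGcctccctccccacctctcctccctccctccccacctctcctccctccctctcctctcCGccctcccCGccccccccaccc
CLCN4: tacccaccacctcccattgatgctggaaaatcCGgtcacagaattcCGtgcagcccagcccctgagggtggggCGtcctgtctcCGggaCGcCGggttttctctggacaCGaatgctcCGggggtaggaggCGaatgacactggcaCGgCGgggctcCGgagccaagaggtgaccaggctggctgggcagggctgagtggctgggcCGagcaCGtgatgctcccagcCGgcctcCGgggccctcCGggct
The GRIK2 window lies within the annotated span of the gene, downstream of the start that the file gives. The last 5 bases of the CACNA2D3 window and the last 30 of the CLCN4 window are annotated exon. In the order shown, the windows hold 25, 31 and 17 CpG dinucleotides, and their GC contents are 68.0%, 80.8% and 67.6%. Another RefSeq window of GRIK2, not shown (chr6:101398735-101398984), holds 9 CpG at a GC content of 52.0%. The median over all 35116 RefSeq windows of this length was 11 CpG.

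RefSeq windows were matched for 29 of the 37 members, 43 windows in all. The median CpG number was 8.5 in the 22 windows of members that rose and 16.0 in the 21 windows of members that fell, with quartiles of 5.25 to 24.8 and of 3 to 26.0 that cover nearly the same range. Of 4 motifs searched on both strands, the core of the interferon-stimulated response element (GAAA, any 2 bases, GAAA) was in 1 of the 43 windows (2.33%, a CACNB2 window) and in 3.02% of all windows. The STAT dimer motif TTCNNNGAA was in 1 (2.33%) against 6.57%, TATAAA was in 4 (9.30%) against 10.7%, and the GC box GGGCGG was in 21 (48.8%) against 42.6%. No match says only that these letters are not in the window.

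Glutamate receptor genes held the largest rise. GRIK2 encodes a pore-forming kainate receptor subunit and lies on chromosome 6 (101181257 to 102070083, plus strand, GRCh38, as are all positions here). It had 263, 295 and 252 normalized counts in the libraries labelled shKMT5A, against 0.952, 0.963 and 1.97 in the shNC libraries. All 3 shNC values stand for 4 reads in total, so the gene was near the limit of detection there and clearly transcribed in the other group. The ratio of means was 209, with a 95% exact binomial interval of 81.5 to 771 that covers counting error only, and the log2 fold change was 6.91 ± 0.26 (SE; limma, adjusted p = 1.64e-09). GRIK5, whose product joins GRIK2 in kainate receptors and forms no working channel alone, had 59.7, 24.6 and 43.7 normalized counts against 2.86, 9.63 and 8.85. It rose by a log2 fold change of 2.48 ± 0.46 (adjusted p = 3.41e-04), with wide spread among the libraries labelled shKMT5A. GRIN1, the subunit that all NMDA receptors need, went the other way. It had 55.5, 49.1 and 38.7 normalized counts in the libraries labelled shKMT5A and 132, 167 and 187 in the shNC libraries, a log2 fold change of -1.74 ± 0.18 (adjusted p = 4.57e-06). Both kainate subunits in the table were therefore higher and its NMDA subunit lower. Only 3 of 19 glutamate receptor genes were in the table, none of them an AMPA receptor gene, so this does not describe either class.

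GABA receptor genes in the table all fell. Their products form chloride channels opened by GABA, and all 3 in the table of the 24 GABA and glycine receptor genes were lower. GABRD, a subunit of receptors outside synapses, averaged 32.2 ± 4.93 normalized counts in the libraries labelled shKMT5A and 87.4 ± 16.4 in the shNC libraries (SD, n = 3 each), a log2 fold change of -1.41 ± 0.20 (adjusted p = 5.09e-05). GABRP, the pi subunit found in epithelia, had 1.05, 3.07 and 0 normalized counts against 26.7, 16.4 and 43.2. Only 4 reads were counted in the libraries labelled shKMT5A, and the log2 fold change was -3.77 ± 0.54 (adjusted p = 5.29e-05). The shNC mean was 20.9 times as high, with a counting interval of 7.94 to 78.9. GABRR1, a rho subunit first known from retina, was low: 6.28, 0 and 3.97 normalized counts against 17.1, 15.4 and 11.8. Its log2 fold change of -2.24 (adjusted p = 0.00574) was -1.38 without shKMT5A replicate 2, the library with no read, and -2.81 without shKMT5A replicate 1. With a pseudocount of 0.1 it missed the threshold (adjusted p = 0.0585).

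The 2 acetylcholine receptor genes in the table, of 16, moved apart. CHRNB1, the beta subunit of the muscle receptor, had 126, 122 and 116 normalized counts in the libraries labelled shKMT5A and 50.5, 55.8 and 51.1 in the shNC libraries. The replicates were tight in both groups, and the log2 fold change was 1.19 ± 0.14 (adjusted p = 1.06e-05), or 0.20 with DESeq2 on reads (adjusted p = 0.503). The edgeR and DESeq2 runs on reads moved the median of all rows by -0.62 and -1.02, which applies to every gene value quoted from them. Their scaling came from the selected rows alone. A miss there is therefore no miss in the authors' own test, which every row of the table had passed. An annotated non-coding transcript on the same strand shares 14.6% of the exon bases of CHRNB1. CHRNA3, the main alpha subunit of autonomic ganglia, fell to 6.85 ± 2.74 normalized counts, against 21.9 ± 3.63 in the shNC libraries (log2 fold change -1.60 ± 0.36, adjusted p = 0.00134).

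Voltage-gated calcium channel genes were the largest group, with 8 of 26 genes in the table, 5 higher and 3 lower. Among pore-forming subunits, CACNA1D, an L-type channel that opens at low voltage, was the only one of 4 that fell. It had 52.3, 56.3 and 69.5 normalized counts in the libraries labelled shKMT5A and 248, 198 and 270.3 in the shNC libraries, a log2 fold change of -1.99 ± 0.16 (adjusted p = 5.00e-07). The other L-type genes in the table rose. CACNA1F, the channel of photoreceptor synapses, averaged 65.7 ± 6.02 normalized counts against 16.4 ± 3.45, and CACNA1C, the channel of heart and smooth muscle, averaged 24.9 ± 4.22 against 6.75 ± 2.52. Their log2 fold changes were 1.95 ± 0.23 and 1.77 ± 0.34 (adjusted p = 1.19e-05 and 4.23e-04), and CACNA1C missed the threshold with DESeq2 on reads (adjusted p = 0.203). CACNA1B, the N-type channel of nerve endings, was low, with 1.05, 4.09 and 8.94 normalized counts in the libraries labelled shKMT5A and no read in any shNC library. Taking 3 counts in the whole shNC group as the floor, its mean was 4.86 times that of the floor. Counting error in its own 14 reads is left out of this value. Its log2 fold change of 2.23 (adjusted p = 0.00147) was 1.69 without shKMT5A replicate 3 and 2.83 without shKMT5A replicate 1, and DESeq2 on reads gave adjusted p = 0.376.

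Auxiliary calcium channel subunits also went both ways. CACNA2D3, an alpha-2-delta subunit that brings the pore to the membrane, had 104, 112 and 89.4 normalized counts in the libraries labelled shKMT5A, against 3.81, 9.63 and 7.86 in the shNC libraries. The ratio of means was 14.3 and the log2 fold change 3.73 ± 0.31 (adjusted p = 6.59e-07). CACNA2D2, of the same family, had 17.8, 25.6 and 16.9 normalized counts against 36.2, 60.6 and 53.1 and fell by 1.26 on the log2 scale (adjusted p = 9.48e-04). The beta subunits, which sit on the inner side of the pore, split in the same way. CACNB3, the most counted calcium channel gene, had 495, 520.0 and 454 normalized counts in the libraries labelled shKMT5A and 999.8, 1014 and 1079 in the shNC libraries (log2 fold change -1.07 ± 0.07, adjusted p = 1.48e-07). CACNB2 rose to 69.0 ± 13.2 normalized counts, against 32.5 ± 1.63 in the shNC libraries, by 1.05 on the log2 scale (adjusted p = 3.88e-04), and missed the threshold with DESeq2 on reads (adjusted p = 0.701). On chromosome 3 lie CACNA2D2, CACNA1D and CACNA2D3 of this group: CACNA2D2 (50362799 to 50504244), CACNA1D (53328963 to 53813733) and CACNA2D3 (54122547 to 55074557). The 0.309 Mb between the last pair separates a gene that fell from one that rose. On chromosome 9, CLIC3 and GRIN1, which both fell, lie 0.142 Mb apart, and CACNA1B, which rose, follows after 0.709 Mb.

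**Figure D2:**
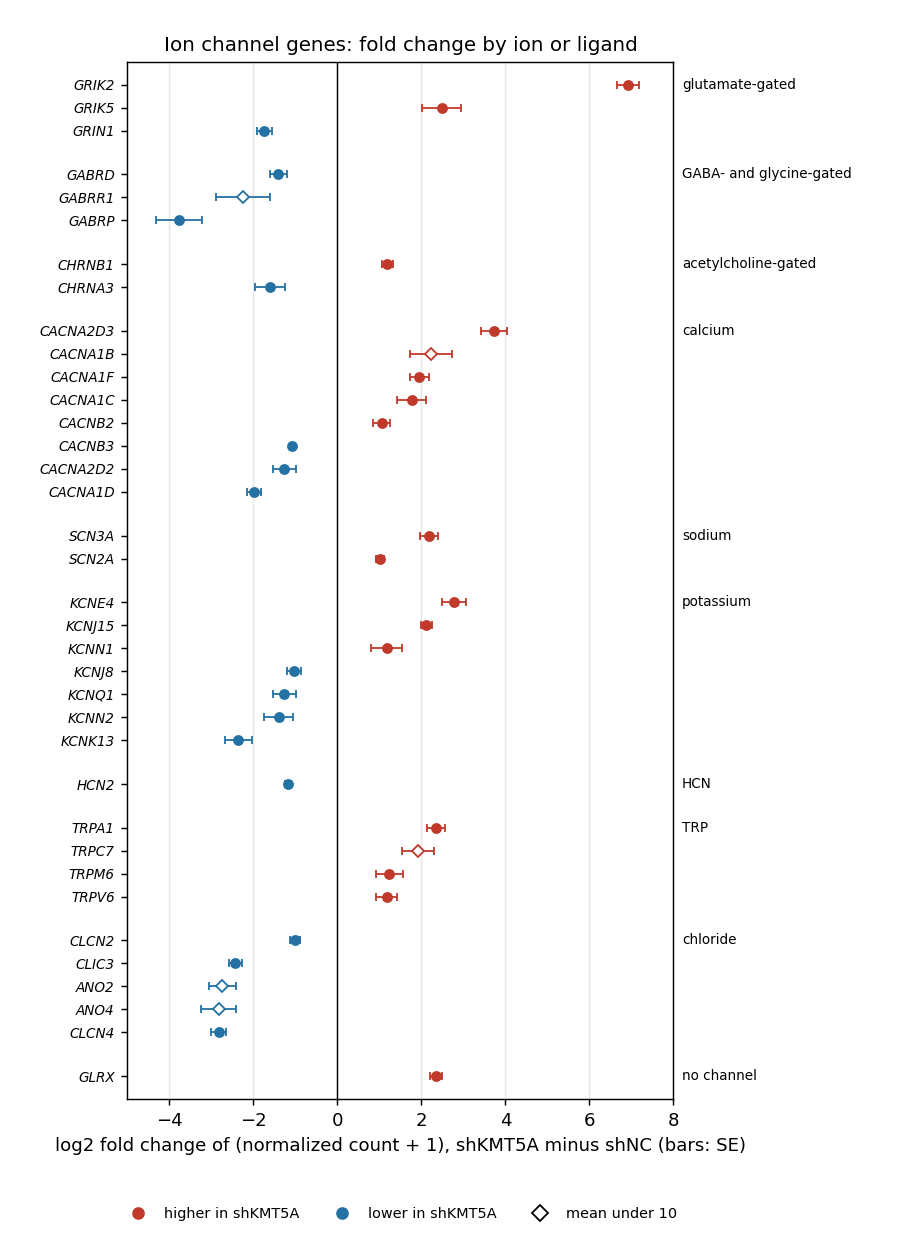
Log2 fold change of (normalized count + 1), libraries labelled shKMT5A minus shNC, with standard errors, for 36 of the 37 members by ion or ligand; open diamonds mark the 5 members with a mean under 10. All 5 genes with a chloride prefix and all 3 GABA receptor genes lie left of 0 and all 4 TRP genes right of it. The calcium and potassium groups hold both directions (SCN2A, at 1.01 here, was at -0.06 with DESeq2 on reads, where the median of all rows moved by -1.02).

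The sodium channel genes SCN3A and SCN2A are neighbours on chromosome 2. SCN3A, a pore-forming subunit best known from the developing brain, had 108, 95.2 and 82.5 normalized counts in the libraries labelled shKMT5A and 16.2, 24.1 and 20.6 in the shNC libraries, a log2 fold change of 2.18 ± 0.21 (adjusted p = 2.34e-06). SCN2A, a channel of axons in the brain, averaged 395 ± 21.9 normalized counts against 195 ± 6.44, a log2 fold change of 1.01 ± 0.09 (adjusted p = 1.04e-06). With DESeq2 on reads it was -0.06 (adjusted p = 0.751), in a run where the median of all rows moved by -1.02. SCN3A (165087522 to 165204067, minus strand) and SCN2A (165194993 to 165392310, plus strand) overlap by 9075 bases at their 5′ ends. A non-coding transcript, AC019197.1, overlaps both: it shares 975 exon bases with SCN3A on the opposite strand, 9.91% of that gene's exon bases, and 240 with SCN2A on the same strand. It averaged 418 ± 15.3 normalized counts in the libraries labelled shKMT5A and 136 ± 27.7 in the shNC libraries, and since the sources used here do not give the strand setting of the counting, its share in the reads of both genes was not tested.

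Potassium channel genes were the largest family by name, with 7 of 97 in the table, of which 3 rose and 4 fell. KCNE4, an auxiliary subunit that inhibits the KCNQ1 channel, had 432, 495 and 336 normalized counts in the libraries labelled shKMT5A and 81.9, 34.7 and 75.7 in the shNC libraries. It was the potassium channel gene with the largest rise, a log2 fold change of 2.77 ± 0.28 (adjusted p = 3.37e-06). KCNQ1, a voltage-gated channel of heart and of the basolateral side of colon epithelium, had 24.1, 47.1 and 26.8 normalized counts, against 66.7, 68.3 and 96.3. It fell by 1.26 on the log2 scale (adjusted p = 9.70e-04). The subunit that inhibits this channel and the channel itself therefore moved in opposite directions at the level of RNA. Inward rectifiers also split. KCNJ15 had 304, 295 and 259 normalized counts in the libraries labelled shKMT5A and 78.1, 56.8 and 61.9 in the shNC libraries (log2 fold change 2.12 ± 0.14, adjusted p = 1.23e-07). KCNJ8, the pore of an ATP-sensitive channel of vascular muscle, averaged 45.5 ± 6.12 normalized counts against 94.4 ± 10.5 (log2 fold change -1.04 ± 0.17, adjusted p = 1.70e-04). An annotated antisense transcript shares 10.8% of its exon bases.

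Of the calcium-activated small-conductance channels, KCNN1 was higher and KCNN2 lower. KCNN1 had 29.3, 35.8 and 26.8 normalized counts in the libraries labelled shKMT5A and 8.57, 23.1 and 10.8 in the shNC libraries, and the high value of shNC replicate 2 lies just under the other group. Its log2 fold change of 1.17 ± 0.36 had the highest adjusted p among members (0.00847), and it missed the threshold with TMM scaling (adjusted p = 0.125), with equal totals (0.118), with edgeR (0.129) and with DESeq2 on reads (0.799). KCNN2 averaged 17.4 ± 8.93 normalized counts against 45.3 ± 13.9 and fell by 1.40 on the log2 scale (adjusted p = 0.0028). KCNK13, a two-pore-domain leak channel of microglia, had 7.33, 4.09 and 6.95 normalized counts, against 29.5, 39.5 and 36.4, and fell by 2.36 on the log2 scale (adjusted p = 3.01e-05).

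HCN2 was the member with the highest level in both groups. It encodes a cation channel opened by hyperpolarisation that carries the pacemaker current of heart and neurons, and it was the only one of 4 HCN genes in the table. It had 705, 837 and 785 normalized counts in the libraries labelled shKMT5A and 1684, 1765 and 1803 in the shNC libraries, a log2 fold change of -1.18 ± 0.07 (adjusted p = 6.41e-08).

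All 4 TRP channel genes in the table, of 23, were higher in the libraries labelled shKMT5A. These are non-selective or calcium-permeable cation channels. TRPA1, the sensor of irritants and oxidants, had 429, 363 and 337 normalized counts in the libraries labelled shKMT5A and 105, 67.4 and 55.0 in the shNC libraries. Its log2 fold change was 2.34 ± 0.21 (adjusted p = 1.04e-06), and an antisense transcript, MSC-AS1, shares 15.4% of its exon bases. TRPV6, the channel of calcium uptake in gut, averaged 38.1 ± 4.14 normalized counts against 16.4 ± 1.78, and TRPM6, the channel of magnesium uptake in colon and kidney, averaged 28.8 ± 7.79 against 11.6 ± 3.04. Their log2 fold changes were 1.17 ± 0.24 and 1.24 ± 0.31 (adjusted p = 6.70e-04 and 0.00271). Both missed the threshold with edgeR on reads (adjusted p = 0.163 and 0.3) and with DESeq2 (0.879 and 0.963), and TRPM6 also with TMM scaling (0.0608). TRPC7, opened by diacylglycerol, was low, with 12.6, 10.2 and 6.95 normalized counts against 1.90, 0.963 and 2.95. Those are 29 and 6 reads, a ratio of 5.12 with a counting interval of 2.08 to 15.1, and its log2 fold change was 1.92 ± 0.39 (adjusted p = 6.84e-04), or 1.52 with DESeq2 on reads (adjusted p = 0.209).

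All 5 genes in the table with a chloride prefix (CLCN, CLIC or ANO), of 25, were lower. This group is set by name alone, and a prefix does not show that the product is a chloride channel. CLCN2, a plasma membrane channel opened by hyperpolarisation, had 284, 216 and 236 normalized counts in the libraries labelled shKMT5A and 436, 498 and 549 in the shNC libraries (log2 fold change -1.01 ± 0.12, adjusted p = 1.29e-05). The coding gene FAM131A on the other strand shares 24.7% of its exon bases. CLCN4, a chloride-proton exchanger of endosomes, had 15.7, 18.4 and 17.9 normalized counts, against 118, 129.9 and 141. The spread within each group was small beside that gap, and the log2 fold change was -2.83 ± 0.18 (adjusted p = 7.07e-08). CLIC3, a protein of the chloride intracellular channel family, had 45.0, 47.1 and 36.8 normalized counts, against 231, 214 and 259 (log2 fold change -2.43 ± 0.15, adjusted p = 5.49e-08). The anoctamins ANO2, a calcium-activated chloride channel of olfactory neurons, and ANO4 of the same family were low. ANO2 had no read in the libraries labelled shKMT5A and 7.62, 4.81 and 4.91 normalized counts in the shNC libraries. Their mean was 5.66 times that of a floor of 3 counts per group. ANO4 had 0, 1.02 and 0 normalized counts, against 4.76, 10.6 and 9.83. With 1 read against 26, its ratio of shNC to shKMT5A-labelled means of 24.6 had a counting interval of 4.04 to 1008. The log2 fold changes were -2.74 ± 0.32 for ANO2 and -2.83 ± 0.42 for ANO4 (adjusted p = 1.15e-05 and 7.38e-05).

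GLRX, the match that encodes no channel, rose. It had 271, 287 and 237 normalized counts in the libraries labelled shKMT5A and 44.8, 52.0 and 58.0 in the shNC libraries (log2 fold change 2.34 ± 0.14, adjusted p = 5.01e-08). Without it 17 members were higher and 19 lower. Among the 29 members classed by name as pore-forming, the exchanger CLCN4 included, 14 were higher and 15 lower. Among the 7 auxiliary or intracellular ones 3 were higher and 4 lower.

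Levels of different genes can be compared only per length. Per kilobase of gene length, HCN2 led with 228 ± 19.6 normalized counts in the libraries labelled shKMT5A and 514 ± 17.7 in the shNC libraries (SD, n = 3). In the libraries labelled shKMT5A it was followed by KCNE4 (102 ± 19.5), CACNB3 (68.5 ± 4.66) and TRPA1 (59.0 ± 7.46), of which the last pair lie close to each other. In the shNC libraries the next were CLIC3 (199.5 ± 19.6), CACNB3 (144 ± 5.93) and CLCN2 (58.0 ± 6.66). KCNE4 was 11th and TRPA1 14th in the shNC order, and GRIK2, 7th of 37 in the libraries labelled shKMT5A, was 36th in shNC. The summed level of the 5 genes with a chloride prefix was 61.6 to 73.9 normalized counts per kilobase in the libraries labelled shKMT5A and 262 to 308 in the shNC libraries. That of the 7 potassium genes was 144 to 193 against 90.3 to 110.0. KCNE4 was the largest part of that sum in the libraries labelled shKMT5A but not in the shNC libraries, and without it the direction turned, with 62.4 to 72.9 against 81.9 to 91.6.

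**Figure D3:**
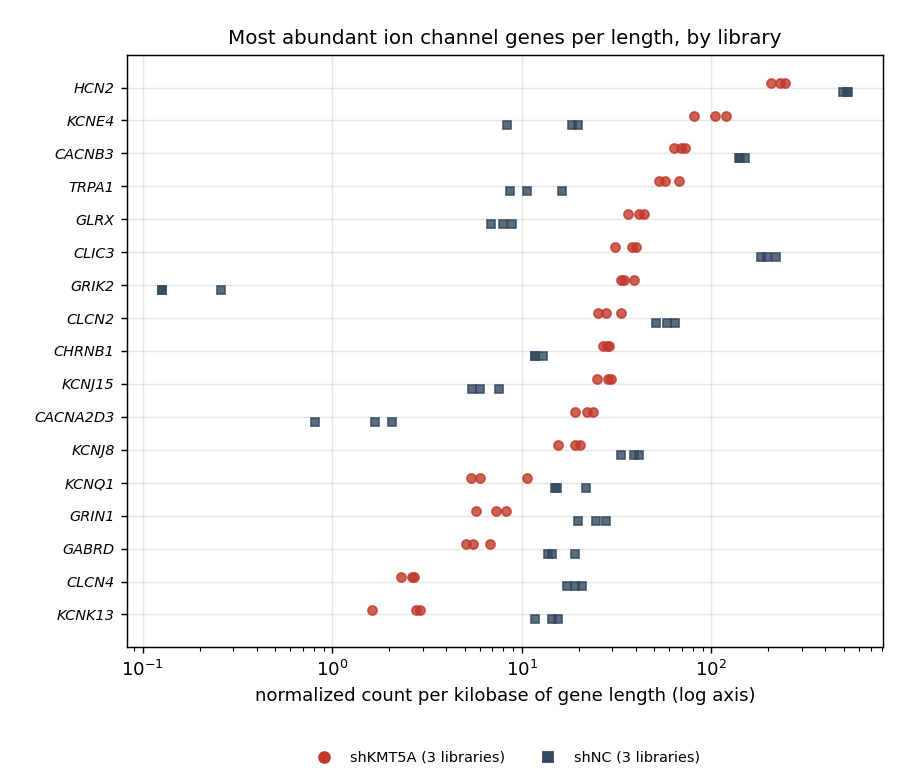
Normalized counts per kilobase of gene length on a log axis, for 17 members ranked 12 or higher in either group, ordered by their mean in the libraries labelled shKMT5A. Circles are the 3 libraries labelled shKMT5A and squares the 3 shNC libraries; HCN2 is highest in both, and GRIK2 and CLCN4 change rank most.

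Channel genes outside the name rule also went both ways. Of 120 such genes listed, 15 were in the table, 9 higher and 6 lower. RYR2, the calcium release channel of heart, had 82.5 ± 18.0 normalized counts in the libraries labelled shKMT5A and no read in the shNC libraries. Its mean was 85.4 times that of the same floor. MCOLN3, a lysosomal cation channel, averaged 1881 ± 151 normalized counts against 666 ± 10.3. The subunits of the epithelial sodium channel in the table moved apart. SCNN1A, the alpha subunit, fell to 627 ± 99.3 normalized counts, against 1559 ± 35.1 in the shNC libraries, and SCNN1G, the gamma subunit, named after its values were seen, rose to 18.4 ± 2.70, against 6.14 ± 2.09 in the shNC libraries (log2 fold change 1.48 ± 0.35, adjusted p = 0.00182). ASIC1, an acid-sensing sodium channel, fell and averaged 677 ± 82.3 against 1358 ± 79.9. FAM155A (now NALF1), a partner of the sodium leak channel NALCN, had 1.71 ± 2.96 normalized counts against 68.4 ± 14.2. Of these 6 genes named, RYR2 had the highest log2 fold change (6.36 ± 0.33, adjusted p = 1.63e-08) and FAM155A the lowest (-5.23 ± 0.63, adjusted p = 1.34e-05).

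Genes for channel partners and clustering proteins were 19 of 79 listed, 9 higher and 10 lower. NETO2, an auxiliary subunit of kainate receptors, rose with GRIK2 and GRIK5: it averaged 255 ± 14.9 normalized counts in the libraries labelled shKMT5A and 7.39 ± 1.93 in the shNC libraries (log2 fold change 4.95 ± 0.21, adjusted p = 3.68e-09). ANK3, the ankyrin that anchors sodium channels, averaged 1757 ± 118 against 154 ± 4.72 (log2 fold change 3.50 ± 0.08, adjusted p = 2.85e-11). FGF14, which binds the tail of sodium channels, had 141 ± 34.9 normalized counts and no read in the shNC libraries, a mean 146 times that of the floor. DLG1, a scaffold that binds potassium channels and glutamate receptors, averaged 1373 ± 143 against 4419 ± 111, and ANK1 averaged 224 ± 21.4 against 819 ± 62.9. Named after their values were seen, ABCC9, the regulatory partner of KCNJ8, averaged 4.08 ± 0.993 against 41.0 ± 9.63 and was lower as KCNJ8 was. FGF13, a relative of FGF14, averaged 23.1 ± 7.74 against 256 ± 15.8, in the opposite direction to FGF14. Of 29 pump genes only ATP1B1, a subunit of the sodium-potassium pump, was in the table (2008 ± 227 against 963 ± 43.6). Of 53 genes of calcium-dependent signalling 6 were in the table, 3 higher (PLCB4, CAMK1D and CAMK1) and 3 lower, with CAMK2N2 averaging 194 ± 14.6 against 555 ± 4.34. None of 7 transcriptional regulators of neuronal genes listed was in the table.

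**Figure D4:**
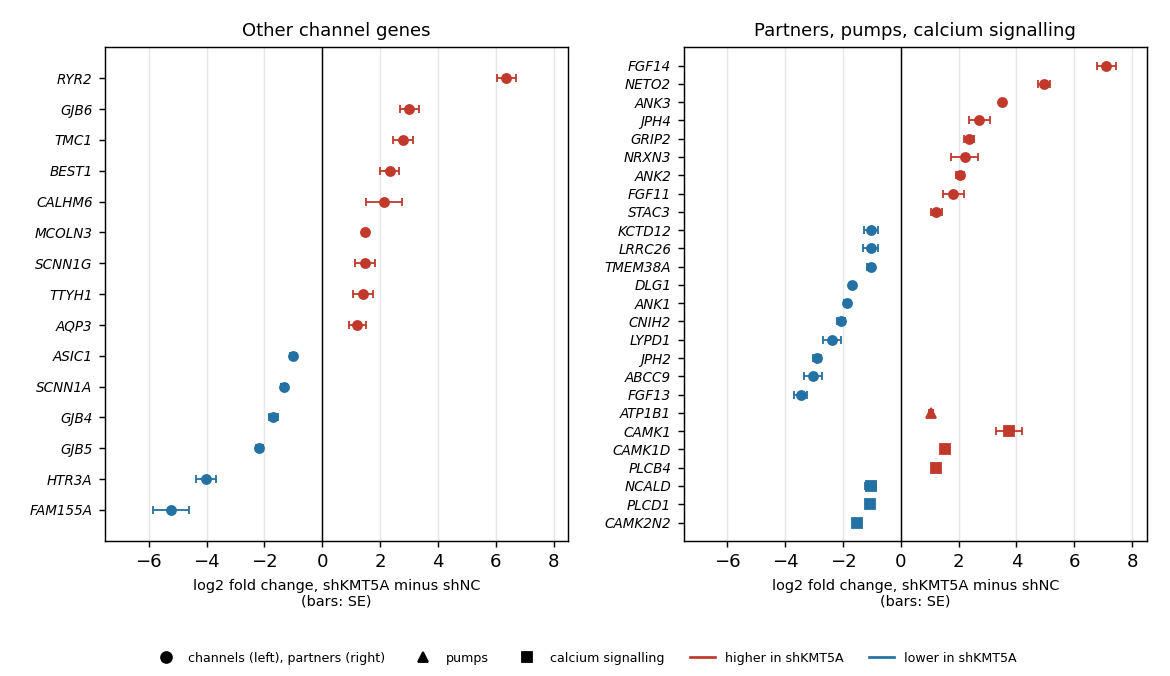
Log2 fold change with standard error, libraries labelled shKMT5A minus shNC, for the 15 other channel genes in the table (left) and for the 19 partner, 1 pump and 6 calcium signalling genes (right). RYR2 and FGF14 lie at the upper ends and FAM155A and FGF13 at the lower ends.

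Markers of other tissues gave no common direction beside these genes. Of 17 neuronal markers 2 were in the table, MAP2 higher (454 ± 11.1 against 190.0 ± 16.2 normalized counts) and SYN1 lower (8.87 ± 3.72 against 34.1 ± 8.02). Their summed level was 450.1 to 471 in the libraries labelled shKMT5A and 216 to 238 in the shNC libraries. Of 12 muscle markers 0 were in the table. Of 13 leukocyte markers 4 were in the table, 1 higher and 3 lower, with summed levels of 114 to 139 in the libraries labelled shKMT5A and 489 to 548 in the shNC libraries. Most of that sum is CORO1A, an actin-binding protein (105 ± 12.9 against 489.8 ± 27.3), and the one that rose is CD8A (13.2 ± 3.53 against 0.638 ± 0.553). The table held 6 of 12 markers of fibroblasts and endothelium (3 higher, 3 lower), with sums of 95.3 to 121 in the libraries labelled shKMT5A and 172 to 181 in the shNC libraries. LUM fell furthest (0.341 ± 0.591 against 111 ± 13.0) and is most of the shNC sum. DCN and TEK also fell. COL3A1 (65.7 ± 6.24 against 14.2 ± 2.86) and ACTA2 (37.3 ± 6.33 against 16.8 ± 5.55) rose, as did CDH5. DCN, at 0 in the libraries labelled shKMT5A, and CDH5, at 0 in the shNC libraries, were both low. For colon epithelium the table held 6 of 14 markers, with sums of 45798 to 47267 against 144335 to 157172. Among them KRT8, KRT18 and KRT19, keratins of simple epithelia, fell, and KRT8 averaged 26247 ± 395 against 100213 ± 4818. AGR2 was higher (77.6 ± 25.4 against 29.6 ± 3.58), as were MUC2 (10.9 ± 4.72 against 0.973 ± 0.983) and CDH17 (4.10 ± 2.12 against 0), which were both low. The part of these differences in the channel values was not tested.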

How the data were processed

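Total RNA of RKO cells was made into libraries with a commercial kit, per the labels' protocols. Tools listed in the submitters' processing notes are HISAT2 2.0.5, DESeq2 1.20.0, featureCounts 1.5.0-p3, CASAVA 1.8 and fastp, and the build is GRCh38. The authors' deposited signal values behave as reads per gene over 1 size factor per library, judged from the values: divided by what 1 read is worth, 100% came out whole (within 0.001). The deposited log2 fold changes and p-values are the authors' own and were used only to describe the table's limits. Columns were assigned by treatment and number, and groups came from the titles and treatment labels.

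Rows averaging 1 or more normalized counts (all 2885) were tested with limma 3.58.1 (trend, robust; R 4.3.3) on log2(value + 1), p adjusted by Benjamini-Hochberg across the table, threshold 0.05. This scale understates the change of low genes. edgeR 4.0.16 and DESeq2 1.42.0 were run on reads recovered for 5 libraries. These count tests left out shKMT5A replicate 3, where a read is worth 0.9935; its values came out as whole as the others, and its reads enter totals and counting intervals only. Intervals (95%, exact binomial) cover counting error only. Floors (3 counts) stand in for a group without reads, and the multiples of them leave out counting error in the other group. The limma test was checked on simulated data with a dispersion of 0.02, where 2524 of the rows tested had no change. It called 66.0% of 2-fold changes, 90.2% of 4-fold changes and 0.2% of the rows without change. The table's rows had all been selected as different on these same libraries, so the adjusted p over them does not control a false discovery rate. How the test performs on such rows was not tested. Positions of all 37 members were identical to GENCODE 29. Members, lists and the rule for named genes were chosen with earlier results of these data known. In each group, that rule takes the 3 members with the highest mean, the 3 highest and 3 lowest fold changes, and any at 0 in a group (35 of 37). CACNA1C and CACNB2 fall outside it. From each other list it takes the 3 highest means and the 2 largest changes. The values of 1 member are not reported here, though the counts over all members include it.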

Additional observations from a re-analysis of the deposited data

How the results depend on the processing

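Each member kept its direction under the alternatives that gave it a value (17, or 16 for the 5 low members, which a minimum mean of 10 removes), except SCN2A, which was at -0.06 with DESeq2 on the reads of 5 libraries. Of 624 fold changes recomputed for the 37 members, 608 also stayed on the same side of the threshold and 15 missed it in the same direction. The authors had selected these rows on the same libraries. The count of higher members, 18, was 9 with DESeq2 on reads, where that of all rows was 786 in place of 1655. The size factors there were estimated among selected genes. The members' median of -1.01 was -1.25 with equal medians, -1.58 with equal totals, -1.61 with TMM, -1.61 with edgeR and -2.02 with DESeq2. It was 0.00 among the 32 members with a mean of at least 10, both where all rows were filtered so and where only members were, because 16 of these were higher and 16 lower. Without any 1 of the libraries, 18 members were higher and 19 lower, with a median of -1.02 to -0.92, 1647 to 1653 higher and 1225 to 1228 lower rows, and a KMT5A log2 fold change of 1.48 to 1.62. Over all its alternatives KMT5A ranged between 0.59 (DESeq2) and 1.62. With the replicate number as a block 18 members were higher and 19 lower, and 1655 and 1228 rows, as without it. Same-numbered libraries did not deviate together (correlations -0.04, -0.03 and 0.01 over 2380 genes). These values gave no sign that the numbers pair the samples, though a small shared effect could be missed. Depth limits the low members most: ANO2, ANO4, CACNA1B, GABRR1 and TRPC7 rest on 14 to 46 reads in the group where each is higher.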
